A study of Mus musculus with 16 samples.

Results

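The replication histone genes of the mouse sit in clusters and carry names that start with Hist1h, Hist2h, Hist3h or Hist4h. Of 55421 gene IDs in the count table, 70 had such a name, and the 47 of them with at least 10 reads in total over 16 liver libraries were taken as members. The choice used the name and the total count and no difference between groups. Of the other 23, 8 had no read at all and 15 had between 1 and 9, so that these 23 genes held 73 reads together against 58180 for the members. The 47 members were 6 genes for the linker histone H1, 8 for H2A, 13 for H2B, 9 for H3 and 11 for H4. Of the 70 rows, 56 lie on chromosome 13, where 41 members lie, 10 on chromosome 3, 3 on chromosome 11 and 1 on chromosome 6, and 3 are annotated as pseudogenes, among them 1 member (Hist1h2al).

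Clustered histone genes make the bulk of the histone protein that is laid on new DNA in S phase. Their messenger RNAs are unlike all others: they end in a short RNA hairpin that the protein SLBP binds, and in dividing cells they carry no poly(A) tail. Some of these genes also give a longer, polyadenylated transcript, chiefly in cells that have stopped dividing, and libraries made by poly(A) selection, as these were, take up mainly that form. HIRA acts beside this system: it is the chaperone that places the variant histone H3.3, encoded outside the clusters by H3f3a and H3f3b, into chromatin at any time of the cell cycle.

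RNA had been sequenced from whole liver of male C57BL/6 mice in 4 groups of 4 libraries, from control and from HIRA KO livers sampled before or after regeneration. All mice received an AAV8 virus at 6 months of age whose Tbg promoter restricts expression to hepatocytes, so the other cells of the liver kept HIRA, and each group combined both ways of deletion. In the 2 Cre libraries of each group, HIRA fl/fl mice given AAV8 Tbg-Cre were the HIRA KO and wildtype mice given the same virus the control. In the 2 CRISPR libraries of each group, wildtype mice were given AAV8-Tbg-saCAS9/U6-sgRNA-HIRA (HIRA KO) and, for control, the virus AAV8-Tbg-saCAS9/U6-sgRNA-Rosa26. Part of the liver was resected 4 weeks after injection, which gave the tissue called before, and the regrown remainder was taken 5 days later, which gave the tissue called after, so that lobe and time changed together and cannot be told apart. The table's columns carried the group and a running number from 1 to 4 that is in no label, so a library is named here by its group and that number, and neither the way of deletion nor the mouse could be assigned to it.

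The hairpin is the feature that sets these transcripts apart, and the bases annotated after it are those that only a longer transcript carries. A stem of 6 base pairs that begins with GG, around a loop of 4 bases that begins with TT, was present in an annotated transcript (GENCODE M21, genome build GRCm38, plus strand of the transcript) of 44 of the 70 genes (62.9%) and of 86 of 21834 other protein-coding genes (0.394%). The sites of 7 members that the results turn on are shown with 5 bases on either side, the hairpin in capitals.
Hist1h1c: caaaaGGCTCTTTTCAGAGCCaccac
Hist1h2ac: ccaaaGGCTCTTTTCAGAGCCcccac
Hist3h2ba: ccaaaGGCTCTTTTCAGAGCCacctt
Hist1h3d: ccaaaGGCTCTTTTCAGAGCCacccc
Hist1h4d: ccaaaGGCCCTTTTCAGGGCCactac
Hist1h4i: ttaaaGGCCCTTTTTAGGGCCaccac
Hist1h4j: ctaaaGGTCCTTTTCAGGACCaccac
The H1, H2A, H2B and H3 genes shown share 1 hairpin, which is also the most frequent, found in 26 of the 44 genes and in none of the H4 genes. The H4 genes shown carry 3 other stems or loops: that of Hist1h4d was found in 7 genes, and those of Hist1h4i and Hist1h4j in 2 each, all of them H4. In Hist1h1c the hairpin is at chr13:23739512-23739527 on the plus strand and 840 annotated bases follow it, and in Hist1h4j it is at chr13:21735437-21735452 on the plus strand with 385 bases after it. Behind the hairpin, 2010 bases are annotated for Hist1h2ac, 752 for Hist1h3d, 770 for Hist1h4d, 330 for Hist1h4i and 169 for Hist3h2ba. The single annotated transcripts of Hist1h2bc (1156 bases in 2 exons) and Hist2h2be (2620 bases), members of high level, hold no such hairpin.

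Genes were grouped by how far a transcript is annotated past the hairpin. Of 22 genes with over 100 bases after the hairpin, 21 had at least 10 reads, with a median level of 0.302 CPM per kilobase of exon (CPM, counts scaled to the size of the library after TMM scaling). Of 22 genes with at most 100 bases after it, 12 had at least 10 reads, with a median of 0.109. The remaining 26 genes, with no hairpin in an annotated transcript, had 14 members and a median of 0.0679 but also the highest single level, that of Hist1h2bc. By deposited FPKM the order was the opposite, with medians of 0.370 for over 100 bases, 0.515 for at most 100 and 0.517 without a hairpin. These are descriptions over genes of unlike length and sequence, without a test. Some genes without a hairpin are annotated over a short stretch. Hist1h4k has 312 bases of exon, while in Hist1h4f, another H4 gene, the hairpin begins at base 343. A missing hairpin can thus be a matter of where the annotation ends, and reads beyond that end would not be counted.

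The promoters differed by histone class. RefSeq (GRCm38.p6) gave 59 windows of 250 bases before and 50 after the start for 58 of the 70 genes, and these were searched on both strands for the letters of the TATA box (TATAAA), for those of the CCAAT box and for the octamer ATTTGCAT. CCAAT was in 50 of 59 windows (84.7%, against 37.4% of 32851 windows of all genes), in all windows of H1, H2A, H2B and H3 but in 3 of 12 of H4. The octamer ATTTGCAT was in 6 of 15 H2A and 7 of 16 H2B windows, in none of the other classes and in 1.74% of all windows, and TATAAA was in 55.9% of the histone windows against 13.6% of all. Some H2A and H2B windows overlap on opposite strands, such as those of Hist1h2ae and Hist1h2bg, so the windows are not all separate and 1 site can count in both classes. A member with all 3 motifs and the H4 gene called after regeneration are shown, with matches on either strand in capitals. Matches of different motifs share no letters there.
Hist1h2ac promoter: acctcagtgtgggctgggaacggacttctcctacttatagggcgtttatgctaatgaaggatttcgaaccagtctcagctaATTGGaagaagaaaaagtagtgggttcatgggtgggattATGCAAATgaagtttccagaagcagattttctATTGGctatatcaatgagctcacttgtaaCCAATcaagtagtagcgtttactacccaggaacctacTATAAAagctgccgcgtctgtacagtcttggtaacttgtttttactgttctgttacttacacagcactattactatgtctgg
Hist1h4j promoter: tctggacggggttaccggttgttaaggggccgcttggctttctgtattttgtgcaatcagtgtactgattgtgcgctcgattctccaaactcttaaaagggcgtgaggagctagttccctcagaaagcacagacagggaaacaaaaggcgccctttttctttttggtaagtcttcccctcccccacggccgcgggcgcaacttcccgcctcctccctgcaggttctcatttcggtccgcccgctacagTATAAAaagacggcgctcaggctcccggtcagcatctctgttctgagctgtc
The Hist1h2ac window is chr13:23683910-23684209 on the minus strand. It spans the 251 bases between the start of Hist1h2ac and the start of Hist1h2bc, which is read in the opposite direction, and so holds the start of both genes. The Hist1h4j window is chr13:21734784-21735083 on the plus strand and holds TATAAA alone. A match describes the letters only.

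Nearly all the reads came from a pair of genes. Hist1h1c, which encodes a linker histone common in resting tissue, had 26244 reads (45.1% of the members' reads), and Hist1h2bc, which encodes H2B, had 25642 (44.1%), together 89.2%. With Hist2h2be, another H2B gene (1164 reads), the share reached 91.2%. By class, H1 held 46.7% of the reads, H2B 47.7%, H4 2.60%, H2A 1.75% and H3 1.24%. Per kilobase of exon the order of mean levels was Hist1h2bc at 76.0 CPM, Hist1h1c at 56.0, the H4 gene Hist1h4i at 3.71, the H4 gene Hist1h4h at 1.94, Hist2h2be at 1.47, the H3 gene Hist2h3c2 at 1.11 and the H2A gene Hist3h2a at 0.932. A mean of at least 10 reads per library was reached by 13 members, 27 members had under 50 reads over all 16 libraries, and 32 had no read in at least 1 library. Fold changes of the low members rest on few reads, and their intervals cover counting error only.

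The deposited FPKM values, a second table for the same libraries, placed some genes higher. The H2A genes Hist2h2aa1 and Hist2h2aa2 had no counted read in any library but a mean FPKM of 19.1 (9.35 to 33.4) and 21.7 (10.3 to 36.3). In neither gene was any window of 75 bases unique to 1 gene of the annotation. Of the 70 genes, 32 had under 50% unique windows, 14 of them members and 18 among the 23 genes with under 10 reads. The H2B gene Hist1h2bg had 151 counted reads and a mean FPKM of 18.4 with 52.6% unique windows, and Hist1h2bq, also H2B, 24 reads and 5.43 with 3.92%. A mean FPKM above 1 was held by 21 of the 70 genes, of which 15 were members. How reads that match several genes were counted is not given in the sources used here, so the level of such copies is uncertain in both tables, and a low count is no sign that a copy was silent.

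**Figure D1:**
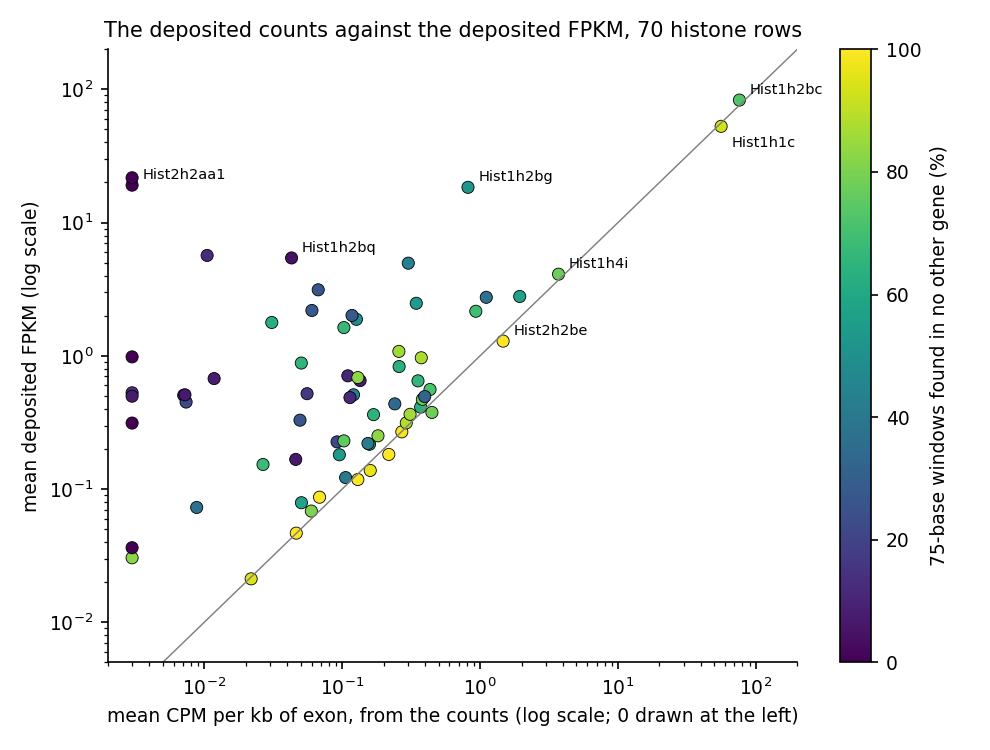
Mean CPM per kilobase of exon from the deposited counts (x axis, log scale, genes without a read drawn at the left edge) against the mean deposited FPKM (y axis, log scale) for the 70 histone genes, coloured by the percentage of 75-base windows found in no other gene. Hist1h2bc and Hist1h1c lie near the line of equal values, and Hist2h2aa1 (mean FPKM 19.1, no counted read) is among the genes far above it, while genes with few unique windows lie both near the line and above it.

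The libraries had between 15103059 and 21738619 counted reads. Hira was at 5.21 to 6.18 CPM in control and 3.13 to 4.38 CPM in HIRA KO before regeneration, and at 4.99 to 6.29 against 3.04 to 4.56 CPM after it, without overlap. On the second principal component of all genes, libraries 1 and 2 of HIRA KO before and libraries 1 and 2 of HIRA KO after stood apart from the others (-47.4 to -36.2, others -1.14 to 31.2). Since nothing in the columns says what these 4 libraries share, the number of members called, the number with a higher estimate and the median are also given without them. The hepatocyte markers Alb, Apoa1, Ttr, Serpina1c and Hnf4a summed to at least 94746 CPM in every library, and of 42 markers of liver cell types, Ly6g (neutrophil) was at 0 in 8 libraries and Cd3d (T cell) in 1. In bulk tissue, fewer cells of a type and less RNA per cell cannot be told apart.

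Before regeneration no clustered histone gene passed the test between HIRA KO and control. None of 47 was called at an adjusted p under 0.05 (edgeR's quasi-likelihood test, Benjamini-Hochberg adjustment; 23018 genes were tested and 0.0391% called). At an unadjusted p under 0.05 there were 10 members (21.3%, 8 higher and 2 lower in HIRA KO), against 13.2% of all genes, and with DESeq2 1 member was called, Hist1h3d (2.13%, against 1.63% of all genes). The estimate was higher in HIRA KO for 37 of 47 members, with a median log2 fold change of 0.49 against 0.01 over all genes. Over the 23 members with more than 3 reads in both groups, 20 were higher and the median was 0.27. The class medians were -0.15 for H1, 0.11 for H2B, 0.63 for H4, 1.13 for H2A and 1.40 for H3. They include members with at most 3 reads in a group, so they rest on few reads and give no ranking of the classes. The H3 gene with the most reads, Hist2h3c2, had 56 in control before and 61 in HIRA KO before. All 4 HIRA KO libraries were above all 4 controls for 6 members (12.8%, against 3.54% of all genes), namely Hist1h1d, Hist1h2ad, Hist1h2ai, Hist1h3d, Hist1h4j and Hist1h4d, and below them for 1, Hist1h2bf (4.53% of all genes). For Hist1h2ad, Hist1h2ai and Hist1h4d the highest control and the lowest HIRA KO library had equal read counts, so only the scaling of the libraries separated them. Hist1h2ai had 7 of its 12 reads in HIRA KO before and was taken as a member through that group.

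After regeneration 1 of the 47 was called between HIRA KO and control, the H4 gene Hist1h4j, higher in HIRA KO, against 0.491% of all genes. At an unadjusted p under 0.05 there were 14 (29.8%, all higher in HIRA KO), against 15.8% of all genes, and 36 of 47 estimates were higher, with a median log2 fold change of 0.70 against 0.02. Over the 33 members with more than 3 reads in both groups, 24 were higher and the median was 0.62. No overlap between the groups was found for 3 members that were higher (6.38%, against 3.65% of all genes), Hist1h2bc, Hist1h4j and the H4 gene Hist1h4k, and for none that was lower (4.45% of all genes). DESeq2 called 2 others, Hist1h2ac and Hist1h2bc (4.26%, against 3.95% of all genes), and gave Hist1h4j no adjusted p. The class medians were 0.28 for H2B, 0.55 for H2A, 0.86 for H1, 0.98 for H4 and 1.09 for H3, again with members of at most 3 reads in a group included. Of the 47 members, 10 had under 10 reads outside the group where they were highest, so that each was taken as a member through its own highest group. This group was HIRA KO after for 7 of them, HIRA KO before for 2 and control after for 1. Without the 4 libraries that stood apart, no member was called in either comparison with HIRA KO (0.0217% of all genes before and 0.0825% after). The members with an unadjusted p under 0.05 were then 3 before (6.38%, against 6.23% of all genes) and 5 after (10.6%, against 10.5%), at the share of all genes. The estimate was then higher in HIRA KO for 31 members before and 28 after, with medians of 0.27 and 0.23.

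With regeneration few members were called. Since 27 of the 47 had under 50 reads over all libraries, a low share of calls says little about them. In control, 3 of 47 were called after against before (6.38%, against 10.2% of all genes): Hist1h3d and Hist1h4d rose and Hist1h2bc fell. These 3 were also the members whose groups did not overlap, 2 higher (10.0% of all genes) and 1 lower (8.98%). In HIRA KO, 1 of 47 was called, Hist3h2ba, which rose, against 12.0% of all genes. It was the 1 member without overlap and higher (8.61% of all genes), and Hist1h2bc the 1 without overlap and lower (7.45%). Of the 13 members with a mean of at least 10 reads per library, Hist1h3d and Hist1h2bc were called in control (15.4%, against 10.2% of all genes). None of these 13 was called in HIRA KO (12.0% of all genes). The medians of the log2 fold change were 0.19 in control and 0.70 in HIRA KO, against 0.00 and 0.02 over all genes, with 30 and 36 of 47 estimates above 0. Over members with more than 3 reads in both groups they were 0.15 (16 of 27 higher) and 0.55 (23 of 31 higher). Without the libraries that stood apart, 3 members were called in control (16.4% of all genes) and none in HIRA KO (9.54%), with 31 and 27 estimates above 0 and medians of 0.19 and 0.20. Both HIRA KO groups and both control groups enter more than 1 of these comparisons, so their values are not independent.

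The same livers showed S phase by its other genes. Of 26 genes for DNA replication, nucleotide supply and the loading of new histones, 18 rose in control and 17 in HIRA KO and none fell. These were 69.2% and 65.4%, against 10.2% and 12.0% of all genes called, and the median log2 fold changes of the 26 were 1.28 and 1.34. Mcm6, a subunit of the replicative helicase, rose by 3.03 ± 0.359 (log2 ± SE) in control and by 2.25 ± 0.346 in HIRA KO, and Pcna, the sliding clamp, by 0.52 ± 0.143 and 0.53 ± 0.143 (adjusted p 0.000235, 0.00114, 0.0266 and 0.0218). The 26 genes summed to 132 to 155 CPM in control before, 143 to 166 in HIRA KO before, 195 to 430.4 in control after and 217 to 399.7 in HIRA KO after, so that every library after regeneration was above every library before it. The clustered histone genes did not separate in this way: their sum was 128, 154, 222 and 221 CPM in control before (181 ± 47.9, mean ± SD, n = 4), 207, 194, 221 and 201 in HIRA KO before (206 ± 11.2), 161, 185, 135 and 145 in control after (157 ± 21.7) and 383, 255, 183 and 141 in HIRA KO after (240.2 ± 106). Between HIRA KO and control no S phase gene was called, before or after (0.0391% and 0.491% of all genes), with medians of 0.09 and -0.05.

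**Figure D2:**
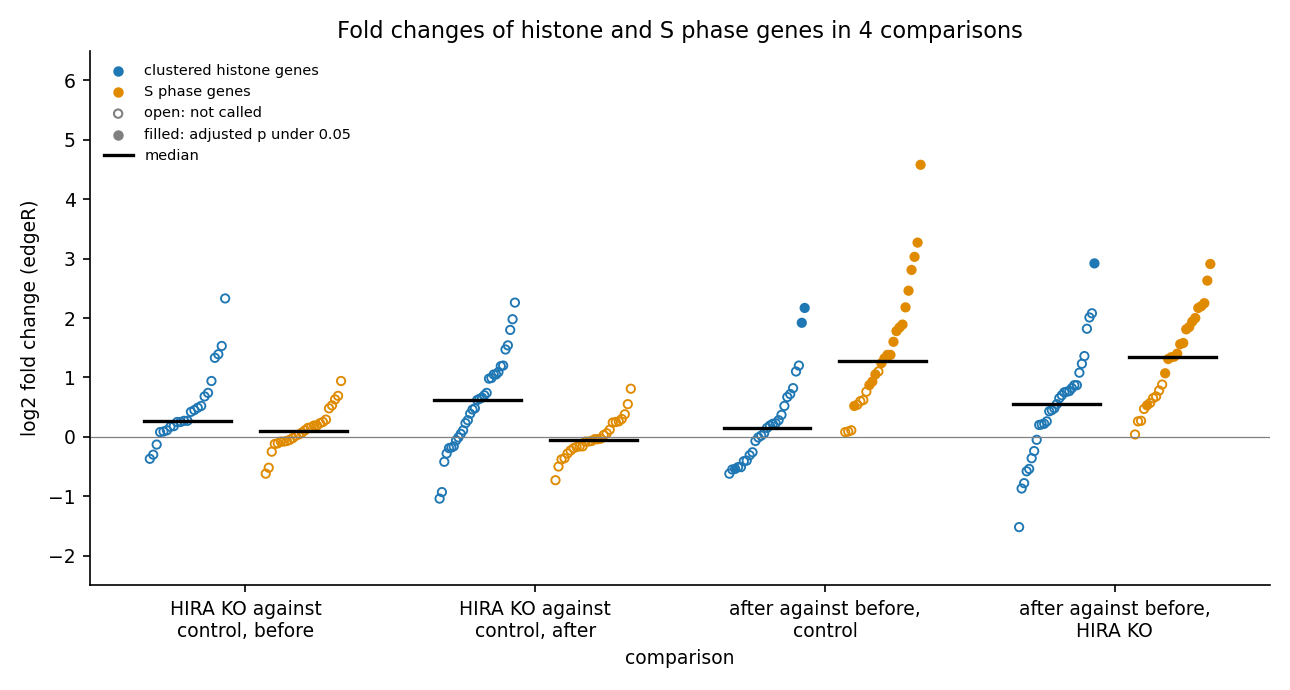
Log2 fold change (y axis, edgeR) of clustered histone genes (blue) and S phase genes (orange) with more than 3 reads in both groups, in 4 comparisons (x axis). Filled points passed an adjusted p under 0.05 and the bars are medians. In both comparisons of after against before, 18 and 17 of the 26 S phase genes passed (10.2% and 12.0% of all genes), while the histone genes spread on both sides of 0.

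Among genes that make and end histone messenger RNA, only Slbp was called, with regeneration in control. The 17 such genes include Npat, the activator of histone transcription, Lsm10 and Lsm11 of the U7 particle, and the nuclease Eri1. None was called between HIRA KO and control (0.0391% of all genes before and 0.491% after), and the medians were 0.02 before and -0.09 after. Slbp, which binds the hairpin, rose in control after regeneration from a mean of 11.2 to 15.4 CPM (log2 fold change 0.47 ± 0.131, adjusted p = 0.0285). It was the 1 gene of the 17 called there (5.88%, against 10.2% of all genes). At an unadjusted p under 0.05 there were 6 of the 17 (35.3%, against 23.5% of all genes), all higher after, and 3 did not overlap (17.6%, against 10.0%): Slbp, Eri1 at a mean of 10.8 against 15.1 CPM (adjusted p = 0.0524) and Npat at 4.47 against 5.72 (adjusted p = 0.145). In HIRA KO Slbp was at a mean of 14.0 CPM before and 15.3 after (0.13 ± 0.130, adjusted p = 0.573). No gene of the list was called there, against 12.0% of all genes. Of the 17, 1 was at an unadjusted p under 0.05 (5.88%, against 27.4% of all genes). Eri1 alone was without overlap, higher after (5.88%, against 8.61% of all genes). The difference between the responses of Slbp was -0.34 ± 0.184 (adjusted p = 0.756, edgeR interaction). The list's medians for regeneration were 0.21 in control and 0.07 in HIRA KO.

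The linker histone gene Hist1h1c (chr13:23738808-23740367, plus strand) was at 44.0, 44.7, 107 and 86.0 CPM in control before and at 82.7, 74.2, 100.5 and 76.6 in HIRA KO before. After regeneration it was at 83.2, 93.5, 55.2 and 61.5 CPM in control and at 228, 130, 80.8 and 51.5 in HIRA KO. The groups overlapped throughout, and library 1 of HIRA KO after was above every other library while library 4 of that group was below all 4 controls. The log2 fold changes in HIRA KO were 0.25 ± 0.402 before and 0.74 ± 0.403 after (adjusted p 0.840 and 0.394), and those with regeneration were 0.06 ± 0.401 in control and 0.55 ± 0.402 in HIRA KO (0.959 and 0.413). Without the libraries that stood apart, the estimates were -0.15 for HIRA KO after regeneration and -0.42 for regeneration in HIRA KO.

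Other H1 genes were at a far lower count. Hist1h1d was at 0.398, 0.753, 1.14 and 1.07 CPM in control before and at 2.54, 2.93, 1.50 and 1.82 in HIRA KO before, without overlap, for a log2 fold change of 1.39 ± 0.609 (adjusted p = 0.349). After regeneration it was at 0.564, 2.12, 0.872 and 1.73 CPM in control and at 8.47, 3.55, 1.94 and 0.779 in HIRA KO, where the highest and the second lowest level of the 8 libraries both lay in HIRA KO (1.47 ± 0.576, adjusted p = 0.224). Hist1h1e was at 0.188 to 0.916 CPM before regeneration and at 0.382 to 1.43 in control after it, against 4.35, 0.844, 1.09 and 0.223 in HIRA KO after, and edgeR did not call it (regeneration in HIRA KO, 2.01 ± 0.753, adjusted p = 0.0959) while DESeq2 did (adjusted p = 0.0389, with 15.9% of all genes called). Its transcript overlaps that of the H2B gene Hist1h2be on the same strand, so reads of the pair may be mixed. Hist1h1b, another linker histone gene, had 12, 4, 2 and 0 reads in the libraries of HIRA KO after and none in the other 12. It was taken as a member through that group alone, so its level there is a description, and it was not called (adjusted p = 0.199).

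Among H2A members the 3 highest by mean CPM were Hist3h2a, Hist1h2ac and Hist1h2ae, an order that the deposited FPKM did not share. Of these Hist3h2a varied least, between 1.42 and 2.94 CPM before regeneration, 0.818 and 2.06 in control after and 1.56 and 3.31 in HIRA KO after, and its log2 fold changes lay between -0.26 and 0.64. It overlaps the gene Trim17 on the same strand, so reads of that pair may be mixed. Hist1h2ac, whose promoter is shown above, was at 0.149, 0.377, 0.172 and 0.592 CPM in control before and at 1.06, 1.13, 0.272 and 0.752 in HIRA KO before. After regeneration it was at 0.251, 0.287, 0.436 and 0.240 CPM in control and at 2.95, 1.47, 1.09 and 0.390 in HIRA KO. Both pairs of groups overlapped by 1 or more libraries, and the log2 fold changes were 1.33 ± 0.584 before (adjusted p = 0.349) and 2.26 ± 0.566 after (adjusted p = 0.0709 with edgeR and 0.00991 with DESeq2). Hist1h2ae, at 0.0545 to 0.229 CPM in control after and 0.223 to 0.666 in HIRA KO after, had a log2 fold change of 1.80 ± 0.495 (adjusted p = 0.0939).

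The H2B gene Hist1h2bc (chr13:23684199-23692908, plus strand) had the most even levels. It was at 72.7, 93.2, 98.8 and 121 CPM in control before and at 97.6, 99.2, 106 and 107 in HIRA KO before. It was at 65.5, 69.2, 65.0 and 65.0 CPM in control after and at 95.4, 95.5, 77.7 and 77.4 in HIRA KO after. All control libraries after regeneration thus lay below all control libraries before it and below all libraries of HIRA KO after. With regeneration it fell by 0.54 on the log2 scale in control (SE 0.129, adjusted p = 0.0118), and in HIRA KO, where the groups did not overlap either, the estimate was -0.24 ± 0.129 (adjusted p = 0.239). The difference between these responses was 0.30 ± 0.182 (adjusted p = 0.781). HIRA KO after was above control after by 0.39 ± 0.129 (adjusted p = 0.152 with edgeR, 0.0422 with DESeq2). Hist2h2be was at 2.19 to 4.41 CPM in control before, 2.86 to 5.40 in HIRA KO before, 2.51 to 4.47 in control after and 1.56 to 7.21 in HIRA KO after, with log2 fold changes between 0.19 and 0.28, none called. Hist1h2be was at 0.199 to 1.38 CPM in 12 libraries and at 6.16, 1.47, 1.09 and 0.278 in HIRA KO after. Among low H2B genes, Hist1h2bf and Hist1h2bb had 17 and 16 reads in control before and 2 each in HIRA KO before, ratios of 7.51 (95% interval 1.78 to 67.0) and 7.07 (1.66 to 63.4), and neither was called.

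**Figure D3:**
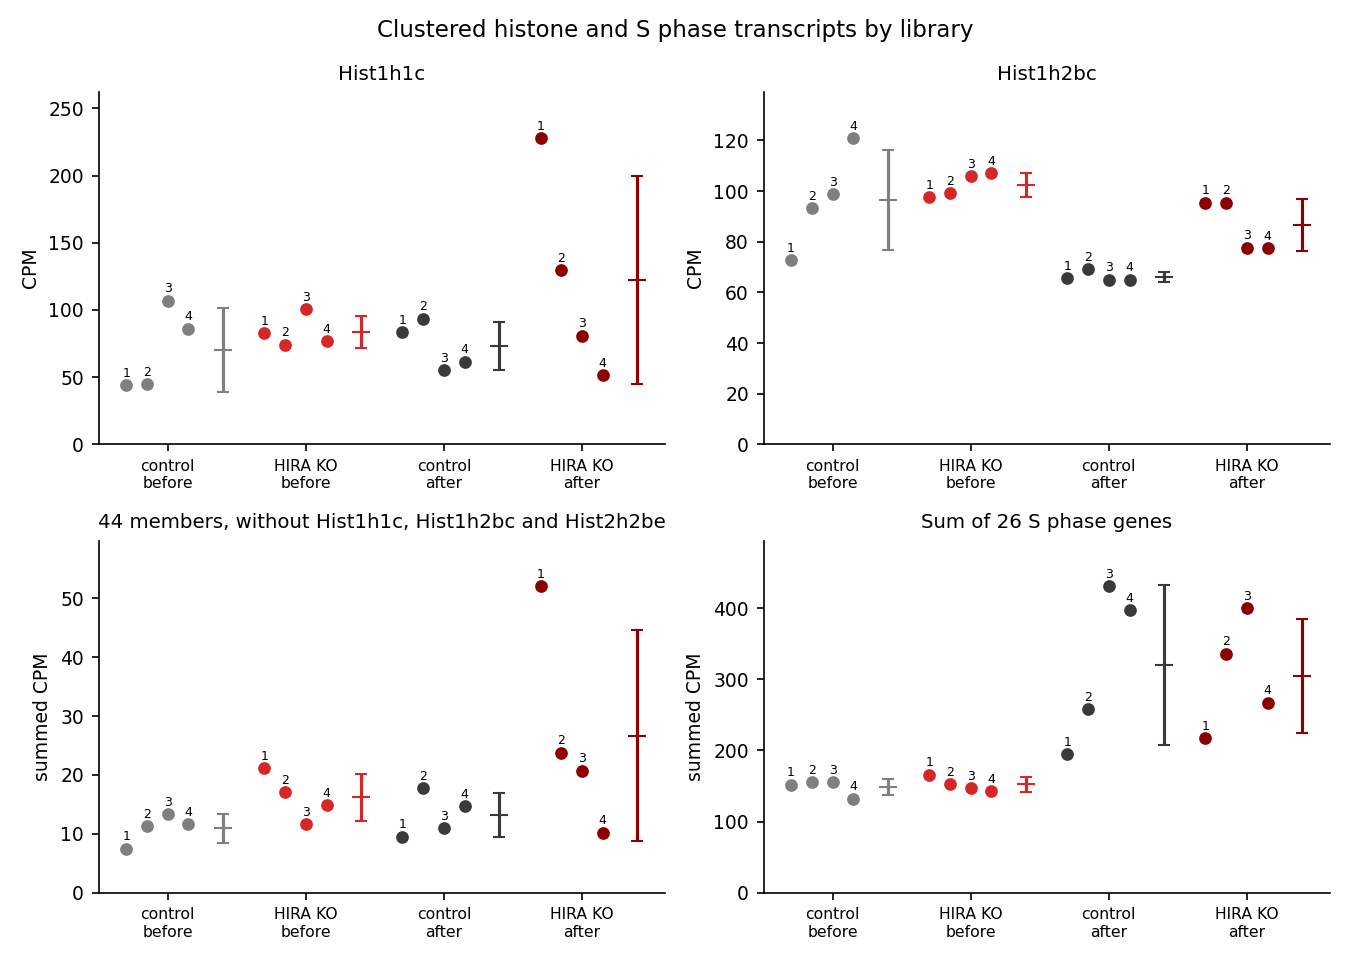
CPM by library (points, numbered within their group) with the mean ± SD of each group for Hist1h1c, Hist1h2bc, the sum of the 44 members other than Hist1h1c, Hist1h2bc and Hist2h2be, and the sum of 26 S phase genes. Library 1 of HIRA KO after is the highest for Hist1h1c (228 CPM) and for the sum of 44 members (52.0 CPM) but the lowest of its group for the S phase genes (217 CPM).

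Hist3h2ba (chr11:58948920-58949533, plus strand), an H2B gene, had 2, 1, 1 and 1 reads in control before, 1, 1, 0 and 2 in HIRA KO before, 2, 4, 2 and 1 in control after and 20, 15, 5 and 4 in HIRA KO after. All 4 libraries of HIRA KO after were above all of HIRA KO before. It rose there by 2.92 ± 0.666 on the log2 scale (adjusted p = 0.00913), and without the libraries that stood apart the estimate was 1.72 (adjusted p = 0.311). In control the estimate with regeneration was 0.82 ± 0.755 (adjusted p = 0.580), and the difference between the responses was 2.11 ± 1.09 (adjusted p = 0.751).

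Of the H3 genes, Hist1h3d (chr13:23575763-23577011, plus strand) gave the clearest separation. It had 2, 4, 2 and 2 reads in control before, 12, 16, 6 and 12 in HIRA KO before, 6, 16, 6 and 11 in control after and 30, 14, 24 and 5 in HIRA KO after. The control libraries before regeneration lay below the other 12, while the remaining 3 groups overlapped one another. With regeneration it rose in control by 1.92 ± 0.555 (adjusted p = 0.0336). This call was lost with limma on FPKM and in 5 of 8 fits with 1 library left out (without control before 1, 3 or 4 or control after 2 or 4), over which the adjusted p ran from 0.0352 to 0.114. In HIRA KO the estimate was 0.26 ± 0.447 (adjusted p = 0.765). The interaction was -1.66 ± 0.712 (adjusted p = 0.683). HIRA KO against control before regeneration was 2.33 ± 0.548 (adjusted p = 0.121 with edgeR, 0.0259 with DESeq2). Hist2h3c2 was at 0.348 to 1.40 CPM in both groups before, 0.384 to 1.49 in control after, and at 5.08, 1.82, 0.806 and 0.167 in HIRA KO after, where the highest and the lowest library of all 16 lay in the same group. Hist1h3c had 3 reads in control before and 31 in HIRA KO before, a ratio of 11.7 (95% interval 3.65 to 59.8), but 1 of the 4 HIRA KO libraries had none.

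The H4 genes hold the 1 member called with HIRA KO. Hist1h4j (chr13:21735064-21735837, plus strand) had no read in any of the 4 control libraries before regeneration and 0, 1, 1 and 0 after it. In HIRA KO it had 11, 3, 2 and 1 reads before and 44, 20, 10 and 5 after. Every HIRA KO library was thus above every control library of its time. After regeneration 79 reads against 2 gave a ratio of 34.3 (95% interval 9.18 to 288, edgeR adjusted p = 0.0420), and before it 17 against none gave at least 6.41-fold (against 3 reads over the group, adjusted p = 0.166). The FPKM values of this gene did not overlap between the groups either: 2.65, 1.26, 0.839 and 0.516 in HIRA KO after against 0.0529 to 0.109 in control after, and 0.201 to 0.802 against 0.0168 to 0.119 before. The call after regeneration was lost without the libraries that stood apart (adjusted p = 0.185), without robust fitting, with the compared groups alone, and in 6 of 8 fits with 1 library left out (any control library, or HIRA KO library 1 or 2), over which the adjusted p ran from 0.0186 to 0.126. Hist1h4j reached 10 reads through its HIRA KO libraries alone. Of its 75-base windows 78.1% were unique.

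Hist1h4d (chr13:23581598-23582735, plus strand) had 1, 0, 2 and 1 reads in control before and 2, 6, 3 and 9 in control after, without overlap in CPM, and rose by 2.17 ± 0.636 (adjusted p = 0.0364). This call, on 4 against 20 reads, was lost in 3 of 7 other fits and in 5 of 8 with 1 library left out (without control before 1, 2 or 4 or control after 2 or 4), over which the adjusted p ran from 0.0257 to 0.140. It had 3, 2, 4 and 2 reads in HIRA KO before and 6, 7, 4 and 3 after, which overlapped (0.45 ± 0.548, adjusted p = 0.648), and the interaction was -1.71 ± 0.847 (adjusted p = 0.740). Hist1h4k had 29 reads in HIRA KO after and 3 in control after, a ratio of 8.39 (95% interval 2.60 to 43.0, adjusted p = 0.147). The better counted Hist1h4i was at 1.72 to 2.43 CPM in control before, 2.04 to 3.39 in HIRA KO before, 1.75 to 3.41 in control after and 2.17 to 6.21 in HIRA KO after (0.62 ± 0.293 for HIRA KO after regeneration, adjusted p = 0.317). Hist1h4h was at 0.438 to 0.912 CPM in control after and at 1.54, 1.29, 2.13 and 0.612 in HIRA KO after (1.19 ± 0.387, adjusted p = 0.145). Hist2h4, at 0 to 1.38 CPM, was without a read in 1 library of every group but HIRA KO before, and none of its comparisons was called.

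**Figure D4:**
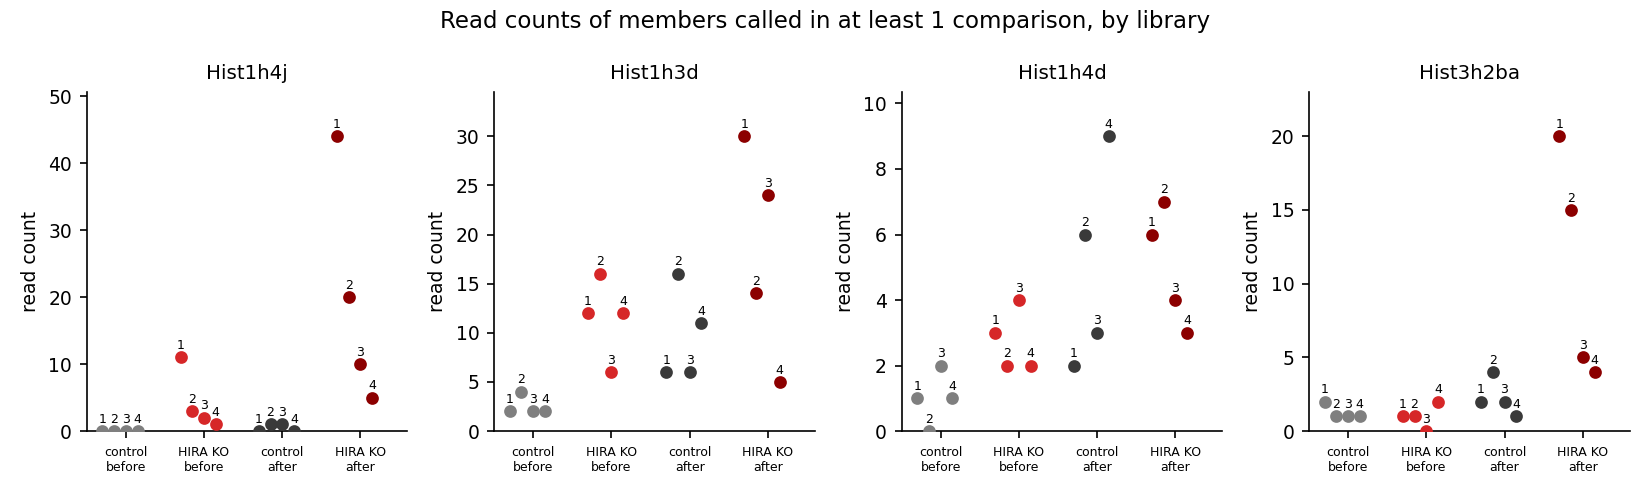
Read counts (y axis, from 0) of the low-count members called in at least 1 comparison, Hist1h4j, Hist1h3d, Hist1h4d and Hist3h2ba, with 1 point per library numbered within its group (x axis). Hist1h4j had at most 1 read in each of the 8 control libraries and 5 to 44 in HIRA KO after, and Hist3h2ba had at most 4 reads outside HIRA KO after.

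No member was called for an interaction of HIRA KO and regeneration, and neither was any other gene with edgeR (0% of 23018). At an unadjusted p under 0.05 there was 1 member, Hist1h3d (2.13%, against 6.81% of all genes), and DESeq2 called none of the members either (0.291% of all genes). The members' median interaction was 0.30, against -0.02 over all genes, and -0.19 without the libraries that stood apart. A difference between the responses of control and HIRA KO was thus not detected for any clustered histone gene.

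A large part of the spread lay within the group HIRA KO after. Its library 1 was the highest of all 16 libraries in 24 of the 47 members, and in 11 of the 13 members with a mean of at least 10 reads per library, while its library 4 was the lowest of that group in 33. In all, 31 members had their highest level in 1 of the 4 libraries that stood apart. The sum of the 44 members without Hist1h1c, Hist1h2bc and Hist2h2be was 52.0, 23.8, 20.7 and 10.2 CPM in HIRA KO after, against 9.52, 17.8, 11.0 and 14.7 in control after, 21.2, 17.1, 11.7 and 14.9 in HIRA KO before and 7.46, 11.3, 13.3 and 11.7 in control before. The S phase genes did not share this order: 1 of 26 was highest in library 1 of HIRA KO after, and their sums in that group were 217, 336, 399.7 and 267 CPM. Mki67, a protein of dividing cells, was at 24.4, 10.5, 72.2 and 27.0 CPM there and at 11.8, 37.8, 71.0 and 77.5 in control after.

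**Figure D5:**
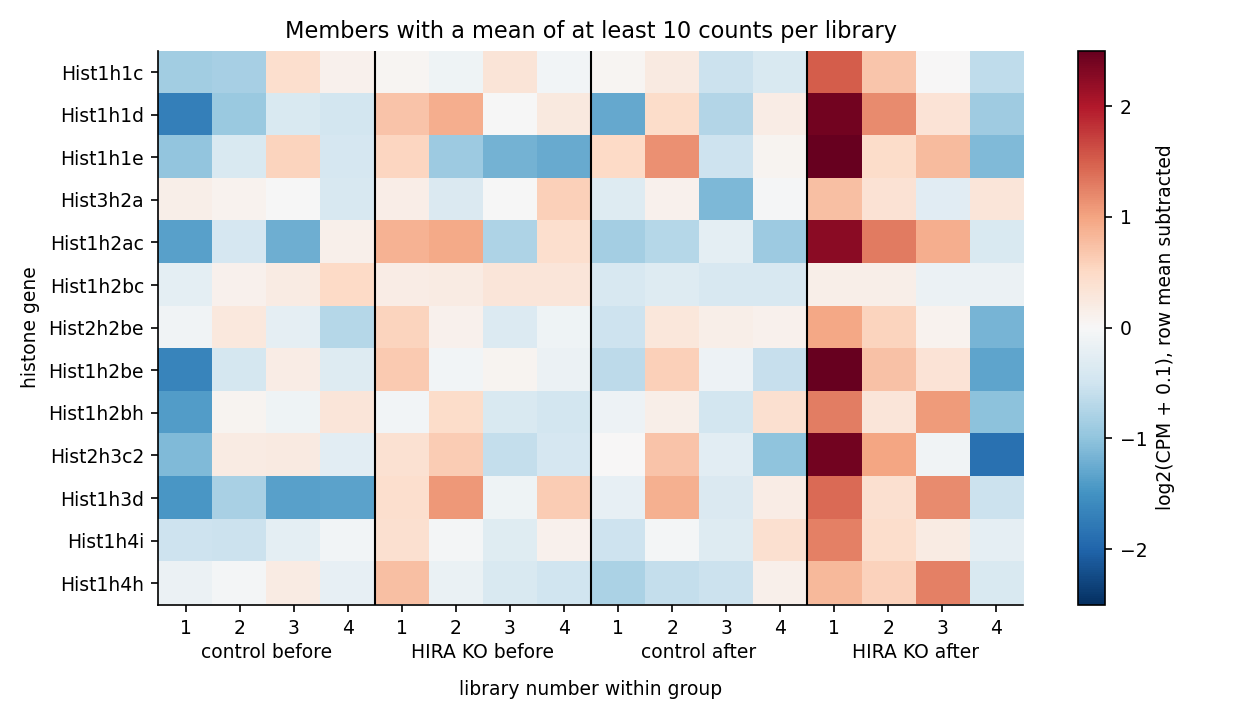
Log2(CPM + 0.1) of the 13 members with a mean of at least 10 reads per library (rows), minus the mean of each row, in the 16 libraries (columns, numbered within their group). Red is above and blue below the gene's own mean. Library 1 of HIRA KO after is the highest in 11 of the 13 rows, and Hist1h2bc varies least.

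Other cell types varied between the same libraries. None of the marker genes of any cell type was called between HIRA KO and control, before or after (0.0391% and 0.491% of all genes). The 5 stellate cell and fibroblast markers summed to 183 to 202 CPM in control before and to 504, 397, 208 and 219 in HIRA KO before, and the 5 cholangiocyte markers to 47.7 to 72.4 and to 143, 97.0, 57.5 and 73.7, both highest in the libraries 1 and 2 that stood apart. The 5 markers of dividing cells summed to 3.61 to 9.16 CPM in control before and to 18.7, 12.9, 5.17 and 5.64 in HIRA KO before. After regeneration all 5 rose in control and in HIRA KO, to sums of 33.4, 104, 248 and 211 and of 57.4, 37.3, 234 and 71.5 CPM. The ranges in control and HIRA KO after were 71.3 to 114 and 81.1 to 131 for cholangiocytes, and 152 to 368 and 280.2 to 422 for stellate cells and fibroblasts. All 5 macrophage and Kupffer cell markers also rose in both. For comparison with these lists, 10.2% of all genes were called with regeneration in control and 12.0% in HIRA KO. Of the other lists, 1 of 5 hepatocyte markers fell in control and 2 in HIRA KO, 1 of 4 endothelial markers fell in each, 1 of 5 cholangiocyte and 1 of 4 B cell markers rose in control and 1 of 4 neutrophil markers in HIRA KO, while none of the 5 T and NK cell or the 5 stellate cell markers was called. The part of these cells in the histone levels was not tested.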

How the data were processed

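Bulk RNA-seq of 16 liver libraries was made, per the labels, from poly(A)-selected RNA with a directional kit, and per the study's methods reads were trimmed (Trim Galore) and aligned to mm10 with STAR. The methods name HOMER for counting, while the submitters' processing notes name STAR, HTSeq and Cufflinks without roles. The strand setting and the treatment of reads that match several genes are not given in the sources used here. The first deposited table holds raw read counts per gene, and the second deposited table holds FPKM, with empty cells read as 0. Depth was 15103059 to 21738619 reads per library.

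Genes with at least 10 reads in total were tested (23018) with TMM scaling and edgeR 4.0.16 (R 4.3.3), by a robust quasi-likelihood test with 4 group means and Benjamini-Hochberg adjustment, and called at an adjusted p under 0.05. CPM are TMM-scaled. DESeq2 1.42.0, limma 3.58.1 on log2(FPKM + 0.1) and log2(FPKM + 1), other scalings and filters, and fits without each library were alternatives. The fits were tested on simulated data. A member with at most 3 reads in total in a group was given a ratio of reads with an exact 95% Poisson interval, or, with none, a bound against 3 reads over the group. Such intervals cover counting error only.

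Named were the 3 highest members of each class, every member called with HIRA KO or in the interaction, and the 5 higher and 5 lower called members of each regeneration comparison. Members, lists and tests were chosen with earlier results of these data known. Members outside this rule that are named for non-overlap, low counts or a difference between the tables were chosen after their values were seen. Of 55421 gene IDs, 54673 matched GENCODE M21 with their version, the source of positions, hairpins and the share of 75-base windows found in 1 gene. Replicates are separate mice of 1 group per the series' design text, with libraries before and after from the same mice, which the columns do not pair.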

Additional observations from a re-analysis of the deposited data

Results flagged for a closer look

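In 80 groups of 4 libraries (18 named members and 2 sums over the members, in each group), 5 held a library whose gap to the nearest of the others, over the group's range, passed Dixon's 95% critical value, and chance flags about 1 in 20 groups, so 5 of 80 is near what chance gives. Hist1h1e was at 0.900 CPM in library 1 of HIRA KO before, 1 of the libraries that stood apart, against 0.188 to 0.267 in the others. Hist1h2bc was at 69.2 CPM in library 2 of control after, against 65.0 to 65.5. In control before, Hist1h3d was at 0.215 CPM in library 2 (others 0.0995 to 0.118), Hist1h3c at 0 in library 2 (others 0.0497 to 0.0592) and Hist3h2ba at 0.0995 in library 1 (others 0.0538 to 0.0592), gaps of 1 or 2 reads.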

How the results depend on the processing

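The alternative without the 4 libraries that stood apart was added after seeing the data. No paired analysis was possible because the columns carry neither the mouse nor the replicate numbers of the labels, and fits by deletion approach were not run for the same reason. Percentages given below beside a number of members called are the shares of all genes called in the same fits. For HIRA KO against control before regeneration, the number of members called was 1 with DESeq2 (1.63%). It was 0 in all other alternatives run (0.00434% to 0.113%). After regeneration it was 0 with edgeR's own expression filter (1.50%), which keeps 14 members and leaves Hist1h4j untested. Without robust fitting the number was 0 with all members tested (0.408%). It was also 0 with the compared groups alone (0%) and without the libraries that stood apart (0.0825%), and 2 with DESeq2 (3.95%). Leaving out 1 library gave 0 to 4. The number was 0 without any 1 control library after regeneration or library 1 or 2 of HIRA KO after (0.0217% to 0.0608%). It was 4 without library 4 of HIRA KO after (Hist1h2ac, Hist1h2ae, Hist1h4h and Hist1h4j, 2.19%). For regeneration in control the number was 1 with limma on FPKM and pseudocount 0.1 (8.75%), and 0 with pseudocount 1 (8.19%). It was 2 with DESeq2 (14.3%), the compared groups alone (13.8%), edgeR's filter (18.0%) and a filter of at least 1 read (6.03%). With 1 library left out the number was 1 to 3 (at most 10.1%). It was 1 (Hist1h2bc) without control before library 1 or 4 or control after library 2 or 4. For regeneration in HIRA KO it was 0 with edgeR's filter (20.5%), which leaves Hist3h2ba untested, and without the libraries that stood apart (9.54%). The number was 2 with DESeq2 (15.9%) and with pseudocount 0.1 (11.7%), and 3 with pseudocount 1 (11.1%). With 1 library left out it was 1 to 5 (7.11% to 12.1%), 4 without HIRA KO before library 1 (12.1%) and 5 without HIRA KO after library 4 (11.8%). The interaction gave 0 in all alternatives run (0% to 0.291%). The fall of Hist1h2bc in control had an adjusted p of 0.0615 and 0.0653 with limma on FPKM. Estimates of Hist1h1c turned to -0.15 (HIRA KO after) and -0.42 (regeneration in HIRA KO) without the libraries that stood apart, and ran from -0.11 to 0.34 for regeneration in control with 1 library left out (-0.11, -0.10, -0.01 and -0.08 without control before library 1 or 2, or control after library 1 or 2). That of Hist1h2bc before regeneration ran from -0.03 (without control before library 1) to 0.21. Summed CPM without the 3 highest members was 10.9 and 13.3 in control before and after and 16.2 and 26.7 in HIRA KO before and after. Summed FPKM of the members, another unit, was 178 and 156 in control before and after and 223 and 237 in HIRA KO before and after. With 1 library left out the summed CPM of all members ran over 167 to 199 and 147 to 164 in control before and after, and over 201 to 209.7 and 193 to 273 in HIRA KO before and after. The cause of these changes was not tested. With under 50 reads over the 16 libraries in 27 of the 47 members, depth limits what any of these tests can detect.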

Other observations

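The 11 histone genes outside the clusters summed to 535 to 795 CPM. H3f3a, 1 of the genes for the HIRA substrate H3.3, was higher in HIRA KO after regeneration, at a mean of 100.5 against 59.2 CPM (log2 fold change 0.76 ± 0.140, edgeR adjusted p = 0.0383), and was the 1 of 11 called there (9.09%, against 0.491% of all genes). Before regeneration it was at 94.1 against 58.1 CPM (0.70 ± 0.140, adjusted p = 0.0813), where none of the 11 was called. With regeneration in control 3 of the 11 rose (27.3%, against 10.2% of all genes), H2afz by 1.03, H2afx by 1.09 and the centromere histone Cenpa by 2.63. In HIRA KO 1 rose (9.09%, against 12.0%), Cenpa by 1.71. The median log2 fold changes of the 11 were -0.01 and 0.18 for HIRA KO before and after, and 0.03 and 0.32 for regeneration in control and HIRA KO. Hist2h2aa2, absent from the count table's reads, had FPKM values of 20.6, 24.0, 18.8 and 23.1 in control before, 35.8, 36.3, 16.7 and 20.8 in HIRA KO before, 20.4, 18.6, 15.2 and 10.3 in control after and 29.3, 24.8, 18.0 and 14.6 in HIRA KO after, with the highest value of each HIRA KO group in a library that stood apart.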
